A study of Mus musculus with 18 samples.

Results

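Collagen chain genes were taken as the protein-coding mouse genes whose symbol is Col, a type number, the letter a and a chain number. The rule used symbols only, and it found 44 genes among the 53465 gene identifiers counted in every library. They were sorted by the assembly their protein forms: 11 fibrillar chains, 6 basement membrane network chains (type IV), 6 beaded filament chains (type VI), 9 fibril-associated chains with interrupted triple helices (FACIT), 2 multiplexins, 3 short-chain network chains, 1 anchoring fibril chain, 4 transmembrane chains and 2 others. RNA sequencing counts came from brown fat, white fat and skeletal muscle of wild-type C57BL/6J mice, which received either quercetin, a plant flavonol, or the vehicle. The quercetin groups were gavaged with 0.125 mg/kg in 100 µL of 10% PEG400 in phosphate-buffered saline, and the vehicle groups with that solution alone. There were 3 libraries for each tissue and treatment, in 6 groups and 18 in all. The sources used here do not name the white fat depot or the muscle sampled, nor the age, sex and treatment length of these animals. For the lifespan study alone they state males of 14 months and weekly dosing. The labels do not say that the 3 libraries of a group came from separate animals, so every p-value below measures the spread between these libraries, which may be technical.

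Collagens are extracellular proteins built from 3 chains wound into a triple helix. Types I and III form the tension-bearing fibrils of connective tissue and are made chiefly by fibroblasts, type IV forms the sheet-like network of basement membranes around vessels, fat cells and muscle fibres, and type VI forms beaded filaments next to those membranes. In muscle the collagens make up the sheaths that carry force to the tendon, and in fat they enclose each adipocyte and limit how far it can expand.

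The genomic setting of several chains bears on how their counts can be read. On GRCm38, Col4a1 lies on chromosome 8 from 11198423 to 11312826 on the minus strand and Col4a2 from 11312805 to 11449287 on the plus strand. Their annotated start sites lie 21 bases apart, and the genes run away from each other. The stretch that spans both start sites is shown because the chains read from it moved together in every library. It is the plus strand of chr8:11312805-11312826 from RefSeq (GRCm38.p6), with the start base of each gene in capitals.
Col4a1 and Col4a2 start sites: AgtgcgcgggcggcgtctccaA
The other type IV pairs also run away from each other. The start sites of Col4a3 and Col4a4 on chromosome 1 lie 72 bases apart, and those of Col4a5 and Col4a6 on chromosome X 1309 bases apart. Neither of these pairs overlaps, while the exons of Col4a1 and Col4a2 share 22 bases. Promoters that serve both directions are a textbook feature of the type IV genes.

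The interstitial chains Col1a2 and Col3a1 have separate promoters, and the 250 bases before the RefSeq start site of each are shown as a contrast between chains that shared their highest and lowest libraries. The capitals mark the motifs searched on either strand: CCAAT, the GC box GGGCGG and TATAAA.
Col1a2, chr6:4505368-4505617, plus strand: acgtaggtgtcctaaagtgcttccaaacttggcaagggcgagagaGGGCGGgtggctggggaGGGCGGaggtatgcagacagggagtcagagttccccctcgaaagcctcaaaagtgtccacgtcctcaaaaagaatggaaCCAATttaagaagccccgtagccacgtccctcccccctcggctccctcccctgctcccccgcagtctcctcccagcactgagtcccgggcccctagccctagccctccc
Col3a1, chr1:45311288-45311537, plus strand: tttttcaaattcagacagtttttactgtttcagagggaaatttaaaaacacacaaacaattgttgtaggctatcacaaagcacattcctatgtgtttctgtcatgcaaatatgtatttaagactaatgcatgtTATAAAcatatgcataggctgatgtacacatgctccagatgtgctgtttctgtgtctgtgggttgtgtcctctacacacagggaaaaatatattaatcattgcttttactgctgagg
The Col1a2 window held 1 CCAAT and 2 GC boxes at a GC content of 62%, and the Col3a1 window held 1 TATAAA and neither of the other motifs at a GC content of 35.2%. Over the 38 windows of the 35 members with a RefSeq promoter, CCAAT was present in 13, the GC box in 22 and TATAAA in 5. The shares over 32851 windows of the same length were 33.8% for CCAAT, 32.7% for the GC box and 12.4% for TATAAA. A match is a run of letters and not a binding site.

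Each library held between 8436308 and 12311345 counts over all genes, and the 44 chains held between 0.0657% of the counts (muscle vehicle 1) and 1.16% (white fat quercetin 2). Levels are given as CPM with TMM factors of all 18 libraries, which remove differences in sequencing depth. The 6 muscle fibre markers summed to between 68329 and 116655 CPM in muscle. The 4 brown adipocyte markers summed to between 2219 and 10014 CPM in brown fat, and the 5 adipocyte markers to between 488.5 and 33984 CPM in white fat. Several libraries stood apart. In muscle vehicle 1 the interstitial chains were nearly absent, with 1.75 CPM of Col1a1 against 98.4 to 264 CPM in the other muscle libraries. Its 6 fibroblast markers summed to 332 CPM against 741 to 1324 CPM in the others, and its 5 tendon markers to 11.8 CPM against 165 to 431 CPM. Muscle vehicle 3 and muscle quercetin 2 held 5358 and 3546 CPM of the 5 adipocyte markers against 455.5 to 1938 CPM in the other muscle libraries. Of the brown adipocyte markers, muscle quercetin 2 held 279.7 CPM of Ucp1, 199.8 CPM of Cidea and 17.4 CPM of Elovl3. The other muscle libraries held at most 0.699, 18.9 and 0.815 CPM of these. Its Cox7a1, at 363.6 CPM, lay within their range of 226 to 692.7 CPM. Muscle vehicle 3 also had the largest muscle collagen sum, 3926 CPM. The count table of white fat vehicle 1 names its column white rat where the other white fat tables have fat, and its place in the group rests on the sample labels. Its adipocyte marker sum, 33984 CPM, was the highest of white fat. It held 3044 CPM of Col4a1, and its 5 endothelial markers summed to 2873 CPM, where the remaining white fat libraries held 300.1 to 865 CPM. White fat quercetin 2 held the largest collagen sum, 8667 CPM, with 1812 CPM of the fibroblast markers against 316 to 776 CPM. The 4 B and plasma cell markers summed to 4.25 CPM in white fat vehicle 1 and 16.8 CPM in white fat quercetin 2, and to between 479.5 and 2795 CPM in the other white fat libraries. White fat vehicle 2 held the smallest white fat collagen sum, 757 CPM, and 17.9 CPM of Adipoq against 325 to 1100 CPM in the others. Muscle quercetin 2 held 26169 CPM of 4 male tract markers, which were at 0 in every other muscle library. In brown fat quercetin 3 the muscle fibre markers summed to 24873 CPM against 4.86 to 5864 CPM in the other brown fat libraries, and Ucp1 stood at 894 CPM against 3735 to 4745 CPM. The part these markers play in the collagen results was not tested. In such bulk samples fewer cells of a type and less RNA per cell cannot be told apart.

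**Figure D1:**
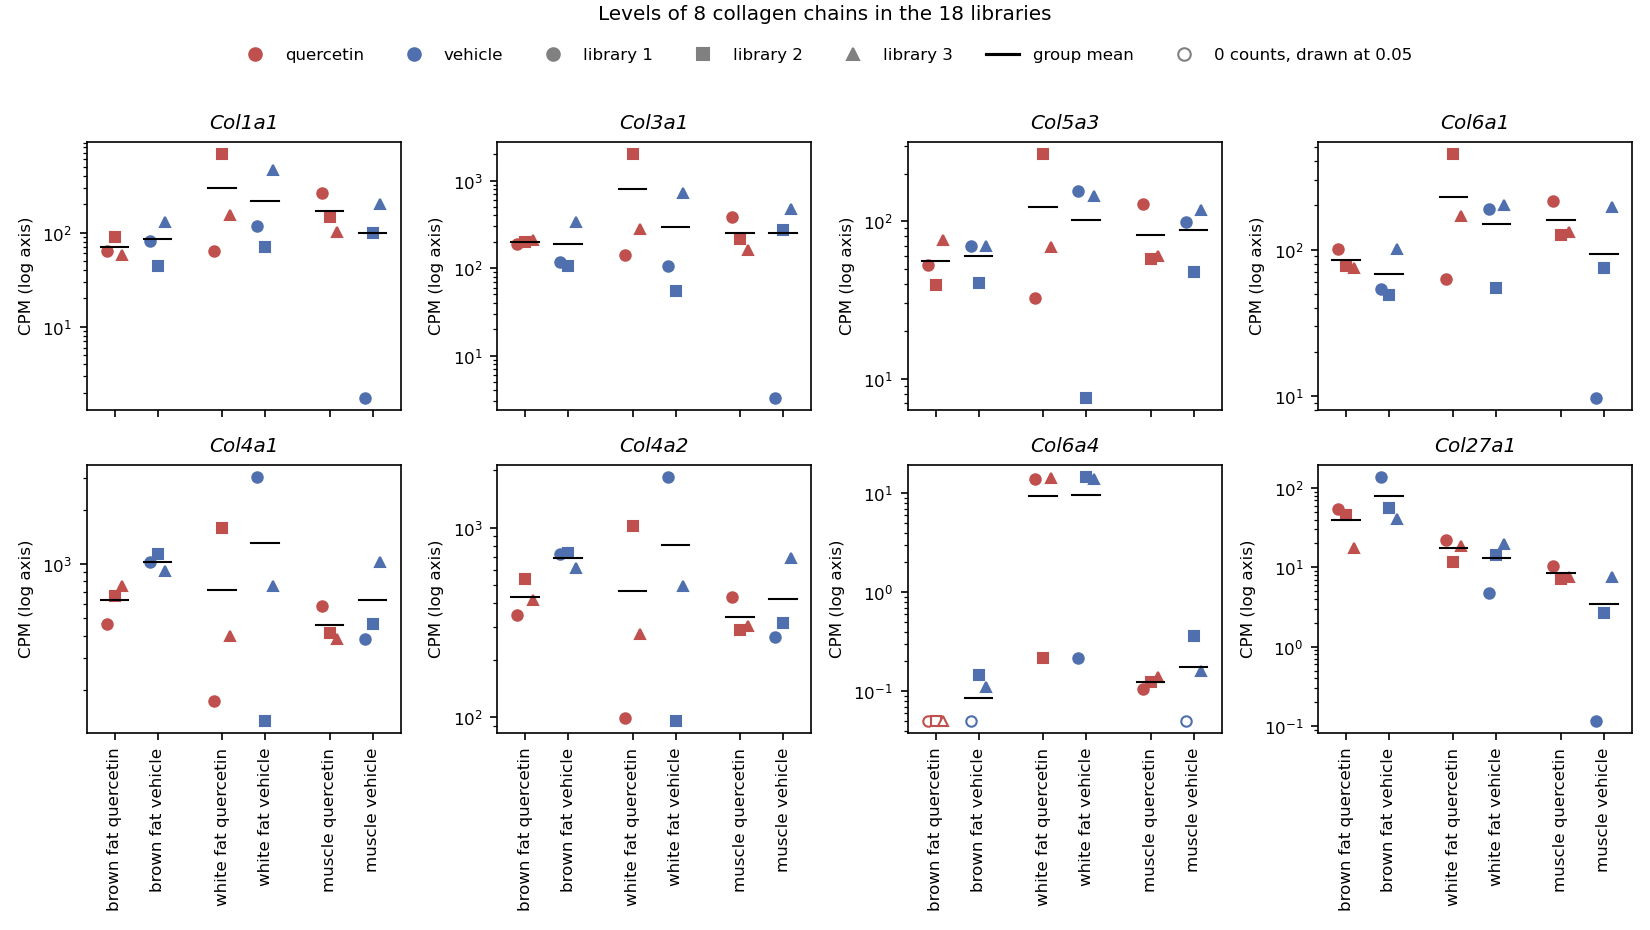
Levels of 8 collagen chains in CPM on a log axis, 1 point per library, quercetin in red and vehicle in blue, group means as lines, and libraries without a count drawn open at 0.05. Muscle vehicle 1 lies far below the other muscle libraries for Col1a1, Col3a1, Col6a1 and Col27a1 but not for Col4a1, Col4a2 or Col5a3.

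Col4a1 had the highest mean level of the family in all 3 tissues. To compare genes, levels were divided by the length of the merged exons and are given in CPM per kilobase (kb). Col4a1 averaged 110.5 CPM per kb in brown fat, 136 CPM per kb in white fat and 72.8 CPM per kb in muscle. Col4a2 averaged 84.9 CPM per kb in brown fat, 96.5 CPM per kb in white fat and 57.5 CPM per kb in muscle. The pair ranked first and second in each tissue and held 36.1% and 27.7% of the length-scaled collagen level of brown fat. The white fat levels rested on vehicle 1: without it Col4a1 averaged 81.5 and Col4a2 59.8 CPM per kb, and Col3a1 passed Col4a2 at 65.4. When length was taken from the longest transcript, Col3a1 also passed Col4a2 in white fat, at 99.3 against 99.0 CPM per kb.

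Behind the type IV pair came the chains of interstitial tissue. Col3a1, the sole chain of type III, averaged 19.8 CPM per kb in brown fat, 56.3 in white fat and 25.8 in muscle. Without white fat quercetin 2 its white fat mean was 26.4. Col6a1, a chain of the type VI trimer, averaged 17.4 CPM per kb in brown fat, 42.9 in white fat and 28.7 in muscle. The type I chains followed in white fat and muscle: Col1a1 averaged 39.4 and 20.6 CPM per kb there, and Col1a2 averaged 28.6 and 16.3 CPM per kb. That order holds for merged exons: with the longest transcript Col1a2 averaged 20.2 CPM per kb in brown fat, 66.5 in white fat and 38.0 in muscle, rank 4 in each and above Col6a1 and Col1a1. Without white fat quercetin 2 the merged-exon mean of Col1a2 in white fat was 17.8. By merged exons the first 8 places were held by the same genes in every tissue: Col4a1, Col4a2, Col3a1, Col6a1, Col1a1, Col1a2, Col6a2 and Col5a3. Col6a3, Col15a1 and Col18a1 filled the next 3 places in all 3 tissues by merged exons. Col15a1 and Col18a1 are the multiplexins, whose C-terminal fragment in type XVIII is endostatin. These orders are descriptions, since the spread between libraries of 1 tissue was wide.

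At the other end, 27 of the 44 chains averaged at least 1 CPM in brown fat, 29 in white fat and 35 in muscle. Of the chains known from cartilage, Col2a1, Col9a1, Col9a2 and Col10a1 were near the floor. Col9a2 averaged 0.0738 CPM in brown fat, 0.114 CPM in white fat and 0.337 CPM in muscle. Col2a1, the main fibrillar chain of cartilage, averaged 0.0341 CPM in brown fat, 0.209 CPM in white fat and 0.236 CPM in muscle. Col9a1 had no count in any of the 6 brown fat libraries, for which 3 counts over the tissue would be 0.0572 CPM. Col10a1, the chain of hypertrophic cartilage, had between 0 and 4 counts per library. Col11a2, a minor fibrillar chain of cartilage, averaged 10.2 CPM in brown fat, 9.85 CPM in white fat and 9.29 CPM in muscle, and Col9a3 averaged 0.920, 1.60 and 0.333 CPM in the same order. The 5 cartilage markers summed to 0.202 to 2.61 CPM in brown fat, 1.502 to 4.52 CPM in white fat and 0.699 to 11.8 CPM in muscle. Most of the muscle sum was Comp, a matrix protein of cartilage and tendon, at 0.582 to 11.4 CPM, and Acan, the cartilage proteoglycan, was at most 0.438 CPM in any library. Col25a1, Col26a1 and Col9a2 also had too few counts for the tests between tissues, which left 38 of the 44 chains tested there.

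The classes differed in how they varied within a tissue. The summed level of all 44 chains spanned 1703 to 2763 CPM in brown fat, 757 to 8667 CPM in white fat and 890 to 3926 CPM in muscle, so brown fat varied least, 1.62-fold, and white fat most, 11.45-fold. Basement membrane chains made up 47.8 to 76.4% of collagen CPM in brown fat, 27.1 to 78.3% in white fat and 30.7 to 73.5% in muscle. Fibrillar chains made up 14.0 to 29.9% in brown fat, 11.2 to 51.2% in white fat and 14.3 to 39.9% in muscle. The top basement membrane share of white fat was that of vehicle 1, and the other white fat libraries lay between 27.1 and 31.0%. The top share of muscle was that of vehicle 1, and the other muscle libraries lay between 30.7 and 44.1%. In all 3 tissues the library with the highest basement membrane share had the lowest fibrillar share. Both are shares of the same sum, so a high share of 1 class limits the other.

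**Figure D2:**
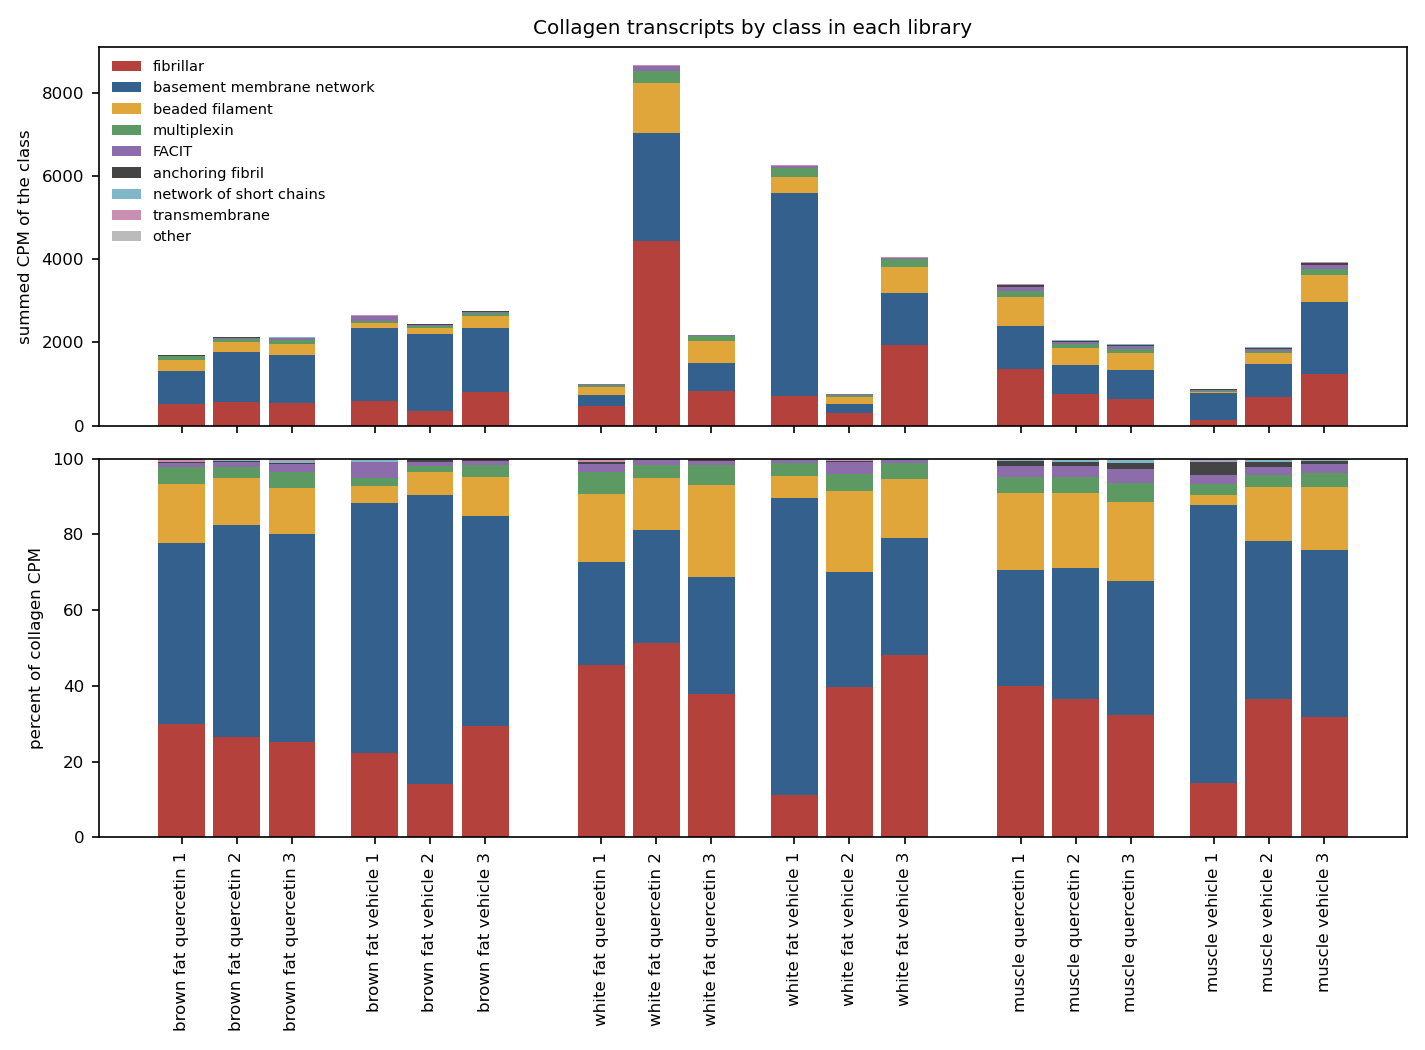
Summed CPM of each collagen class (top) and its percent of all collagen CPM (bottom) in each of the 18 libraries. White fat quercetin 2 has the tallest bar, 8667 CPM, and muscle vehicle 1 and white fat vehicle 1 have basement membrane shares of 73.5% and 78.3%.

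Chains that share a protein kept unequal degrees of step with each other. The α1(IV) and α2(IV) chains join in the common type IV trimer, and the ratio of Col4a1 to Col4a2 per kb lay between 1.10 and 1.60 in all 18 libraries, with a median of 1.30. Over the same libraries the level of Col4a1 spanned a 22.7-fold range, so the ratio moved by 1.46-fold at most. The annotated exons of the pair share 22 bases, 0.295% of those of Col4a1, and the sources used here do not give the strand setting of the counting. For type I, the ratio of Col1a1 to Col1a2 spanned 0.312 to 1.93 with a median of 1.27. The low end was muscle vehicle 1, with 15 against 91 counts, and without it the lowest ratio was 0.873 and the range 2.21-fold. Its median was 0.606 with the longest transcripts, because the merged exons of Col1a2 cover 12426 bases and its longest transcript 5348, so this ratio carries no order of the chains. For type VI, the ratio of Col6a1 to Col6a2 spanned 1.47 to 3.14 by merged exons. With the longest transcripts it spanned 0.924 to 1.98, so this ratio carries no order of the chains either. The ratio of Col6a3 to Col6a1 spanned 0.0838 to 0.476. Its low end was muscle vehicle 1, with 19 against 83 counts, and without that library the lowest ratio was 0.117. Col3a1 against Col4a1, a ratio picked after the values were seen, spanned a 150-fold range, with the lowest value of 0.00646 in muscle vehicle 1 and the highest of 0.972 in white fat quercetin 2. Without muscle vehicle 1 that range was 36.3-fold.

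**Figure D3:**
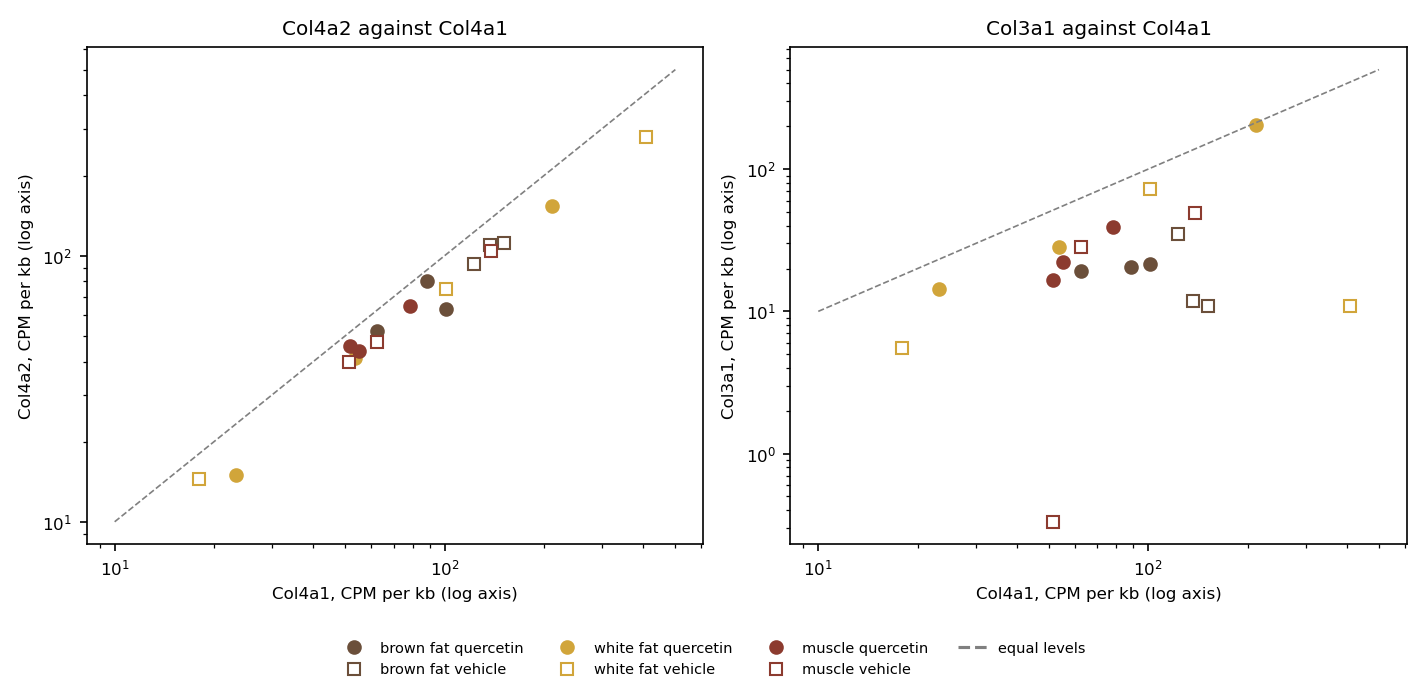
Col4a2 (left) and Col3a1 (right) against Col4a1, all in CPM per kb on log axes, 1 point per library, with the line of equal levels dashed. The Col4a2 points follow the line across the 22.7-fold range of Col4a1, and the Col3a1 points scatter over a 150-fold range of ratios, or 36.3-fold without muscle vehicle 1.

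Between tissues, the chains that separated muscle from fat were mostly minor ones. All 18 libraries were fitted together with edgeR's quasi-likelihood test and each contrast averaged over the treatments. Benjamini-Hochberg adjustment ran over 16388 genes, with a threshold of 0.05. In white fat against muscle, 2 of the 38 chains tested were higher, where 28.6% of all genes tested were, and 11 were lower, where 21.7% of all genes were. In brown fat against muscle, 1 chain was higher and 9 were lower, against 13.9% and 13.3% of all genes. In brown fat against white fat, 2 chains were higher and 4 were lower, against 18.3% and 22.0% of all genes. The median log2 fold change of the chains tested was 0.30 in white fat against muscle, −0.84 in brown fat against muscle and −0.67 in brown fat against white fat, beside 0.24, 0.03 and −0.13 over all genes.

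Col7a1 encodes the chain of the anchoring fibrils that tie basement membranes to the tissue below. It ranged from 2.41 to 13.3 CPM with a median of 6.84 in brown fat, from 0.872 to 3.89 CPM with a median of 2.01 in white fat, and from 22.1 to 41.1 CPM with a median of 29.3 in muscle. Every muscle library lay above every library of either fat, muscle vehicle 1 included, which held 28.8 CPM. The log2 fold change was −3.84 ± 0.43 (SE) in white fat against muscle (adjusted p = 1.22e-05, edgeR) and −2.20 ± 0.40 in brown fat against muscle (adjusted p = 0.00104). Col7a1 was also higher in brown fat than in white fat, by 1.64 on the log2 scale (adjusted p = 0.00481, edgeR), with ranges that overlapped.

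Among the FACIT chains, Col22a1, the chain of the muscle-tendon junction, fell by 4.82 ± 0.84 in brown fat and by 5.77 ± 0.88 in white fat relative to muscle on the log2 scale (SE). It ranged from 0 to 1.46 CPM in brown fat, from 0 to 0.579 CPM in white fat and from 5.77 to 29.2 CPM in muscle, with no overlap between fat and muscle, and its adjusted p was 0.000856 and 0.000133 (edgeR). The highest brown fat library was quercetin 3, which also held the most muscle fibre transcripts. Without it the log2 fold change in brown fat against muscle was −7.51. Col19a1, a chain known from muscle differentiation in mice, had 3 counts over the 6 white fat libraries and 128 over the 6 muscle libraries, a 58.9-fold lower level in white fat (95% counting interval 19.7 to 289). It fell by 4.12 ± 0.90 on the log2 scale in brown fat relative to muscle (adjusted p = 0.00345, edgeR). Its highest library of all was muscle vehicle 1, at 6.29 CPM, the library in which fibrillar chains were lowest. Col20a1 fell by 1.43 ± 0.33 in brown fat and by 1.36 ± 0.33 in white fat relative to muscle on the log2 scale (adjusted p = 0.00491 and 0.00312, edgeR), and neither fat overlapped with muscle.

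The minor type IV chains were lower in fat, while Col4a1 and Col4a2 gave no call in any tissue contrast. Col4a3, Col4a4, Col4a5 and Col4a6 form the restricted networks of glomerular, lung and smooth muscle basement membranes. All 4 fell in white fat relative to muscle, by between 1.98 (Col4a6) and 2.60 (Col4a3) on the log2 scale. Col4a3 ranged from 0 to 0.584 CPM in white fat and from 0.602 to 5.02 CPM in muscle (adjusted p = 0.00247, edgeR). Of the 4, Col4a5 and Col4a6 also fell in brown fat relative to muscle, by 2.57 ± 0.72 and 2.97 ± 0.74 (SE). Col4a6 ranged from 0 to 0.424 CPM in brown fat and from 0.466 to 3.97 CPM in muscle. These levels are low: over 18 libraries Col4a6 had 110 counts, Col4a3 had 165, and 5.65% of the Col4a3 exons overlap a transcript on the opposite strand.

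Other chains higher in muscle belonged to different assemblies. Col24a1, a fibrillar chain known from developing bone, averaged 0.282 CPM in brown fat, 0.340 CPM in white fat and 7.34 CPM in muscle. Its log2 fold change was −4.50 ± 0.81 in brown fat and −4.29 ± 0.79 in white fat against muscle, though muscle vehicle 1, at 0.466 CPM, lay within the range of both fats. Col8a2, a short chain of the network under corneal endothelium, fell by 3.17 ± 0.74 in brown fat and by 3.57 ± 0.71 in white fat relative to muscle. It had 95 counts over 18 libraries. Brown fat reached 0.836 CPM and muscle started at 0.466 CPM, so those 2 tissues overlapped. Col6a6, a type VI chain, fell by 3.17 ± 0.71 in brown fat and by 2.39 ± 0.67 in white fat relative to muscle. Both fats overlapped with muscle: Col6a6 reached 2.545 CPM in brown fat and 3.477 CPM in white fat, and muscle started at 1.514 CPM.

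Col27a1, a fibrillar chain of cartilage and developing tissues, ran the other way. Its brown fat libraries held 53.9, 45.4 and 17.6 CPM with quercetin and 138, 55.8 and 41.0 CPM with vehicle. White fat held 22.4, 11.8 and 18.6 CPM with quercetin and 4.80, 14.4 and 20.0 CPM with vehicle. Muscle held 10.4, 7.19 and 7.66 CPM with quercetin and 0.116, 2.65 and 7.67 CPM with vehicle. Brown fat and muscle did not overlap, and white fat overlapped with both. The log2 fold change was 3.34 ± 0.62 (SE) in brown fat against muscle (adjusted p = 0.00121, edgeR), 1.47 ± 0.58 in white fat against muscle (adjusted p = 0.0452) and 1.86 ± 0.58 in brown fat against white fat (adjusted p = 0.0184). The lowest brown fat library, quercetin 3, was the one with the most muscle transcripts. The highest, vehicle 1, held the most muscle transcripts of the remaining brown fat libraries. The part of these transcripts was not tested. Of 18 fits that each left out 1 library, the brown fat call against muscle was made in 18 and the white fat call against muscle in 7.

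Col6a4 marked 4 of the 6 white fat libraries. It held 14.0, 0.219 and 14.3 CPM in the white fat quercetin libraries 1 to 3, and 0.218, 14.7 and 13.9 CPM in the white fat vehicle libraries 1 to 3. No other library held over 0.361 CPM, and brown fat had 2 counts in all. The summed counts gave a 260.5-fold lower level in brown fat than in white fat (95% counting interval 71.9 to 2155) and a 67.2-fold higher level in white fat than in muscle (33.9 to 156), and edgeR called both (adjusted p = 0.000715 and 0.000956). The white fat libraries that lacked it, vehicle 1 and quercetin 2, are those with few B and plasma cell transcripts, and the part of those cells was not tested. They were also the white fat libraries run on the second flow cell named in the labels, so flow cell and Col6a4 cannot be told apart within white fat. Its neighbour on chromosome 9, Col6a5, held 4.69, 4.96 and 7.61 CPM in white fat quercetin libraries and 0, 4.01 and 3.73 CPM in white fat vehicle libraries, and fell by 3.23 ± 1.05 (SE) in brown fat relative to white fat (adjusted p = 0.0229, edgeR). Col5a1, which nucleates type I fibrils, fell by 1.49 ± 0.55 and the FACIT chain Col16a1 by 1.34 ± 0.51 in the same contrast, with adjusted p of 0.0420 and 0.0473 (edgeR), but these were called in 4 and 5 of the 18 leave-one-out fits. Without muscle vehicle 1 that contrast called 11 chains, and without brown fat vehicle 1 it called 2. The share of all genes called in these fits is not given here. Within the vehicle groups alone the calls were 3 of 31 chains in white fat against muscle, 3 in brown fat against muscle and 0 in brown fat against white fat, where 21.2%, 5.98% and 9.91% of all genes were called. With the replicate number as a block in those fits, they were 3, 2 and 0, where 22.3%, 5.98% and 7.65% of all genes were called, and Col27a1 lost its call in brown fat against muscle (adjusted p = 0.0624, edgeR). Within the quercetin groups they were 11, 10 and 1 of 34 chains, where 32.2%, 14.3% and 20.0% of all genes were.

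**Figure D4:**
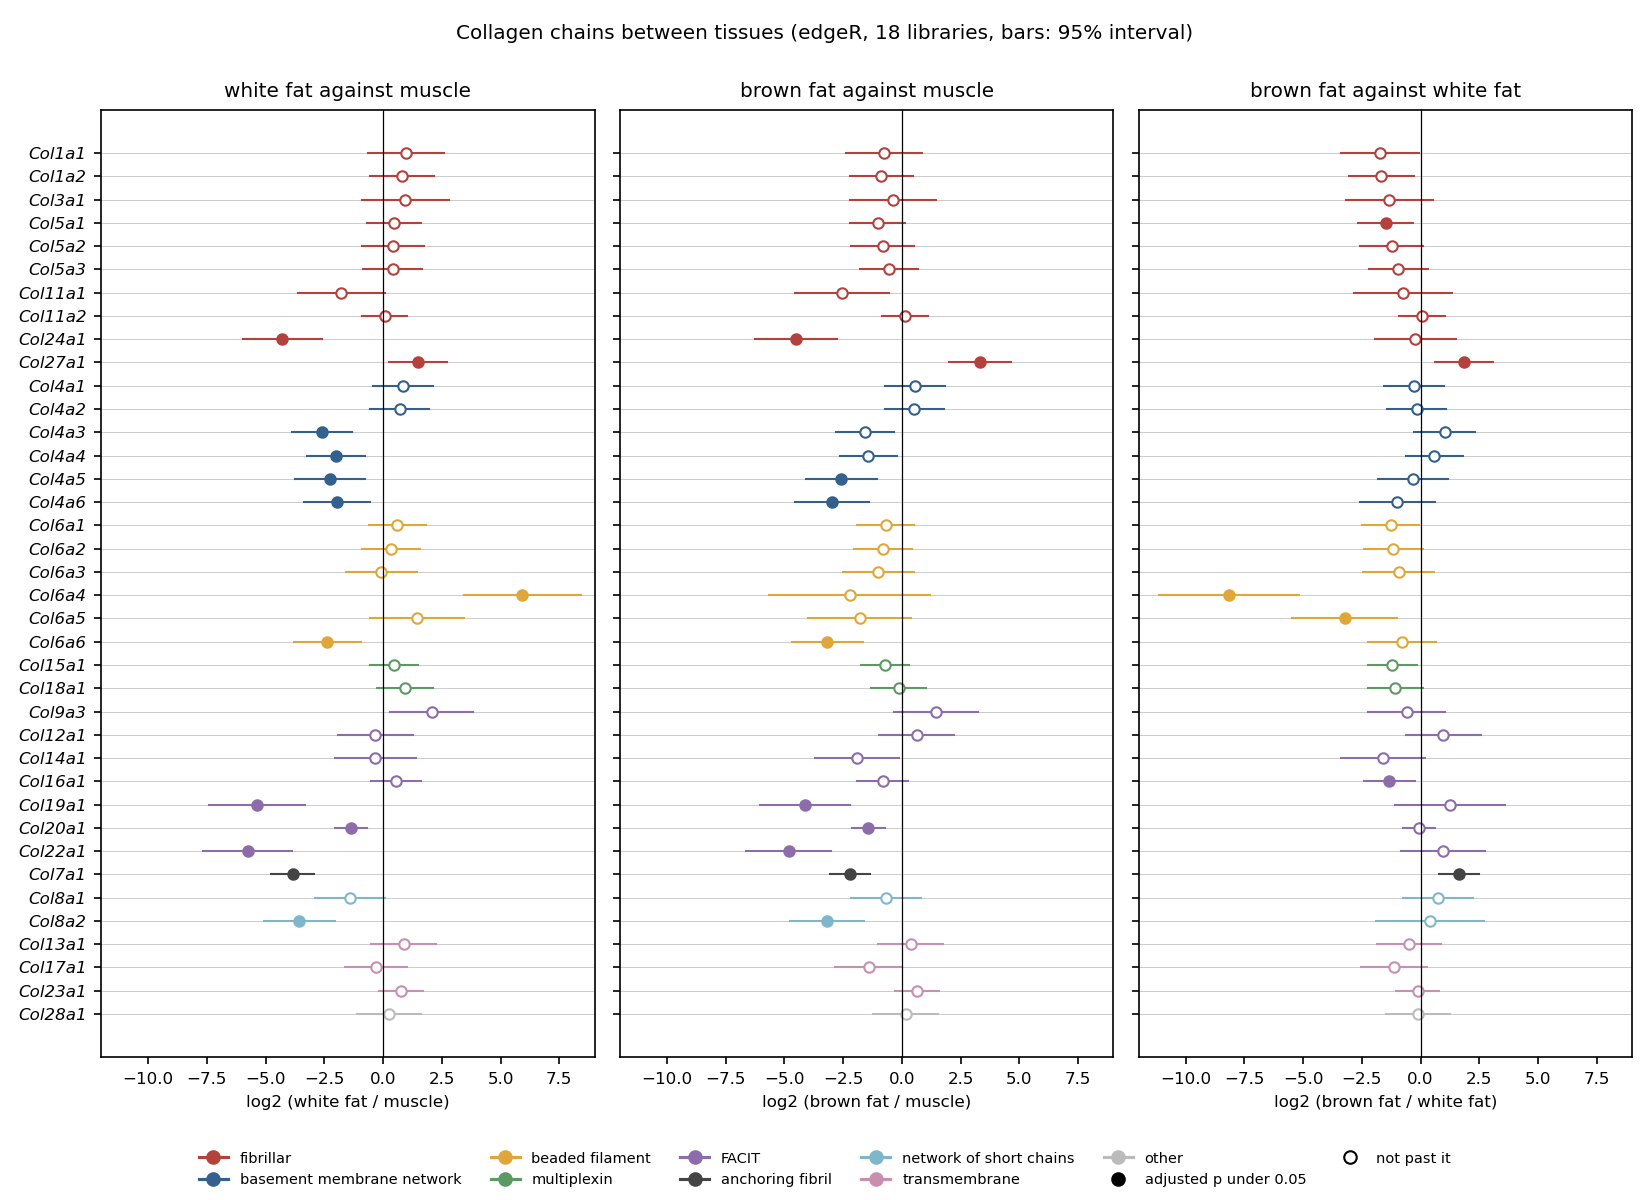
Log2 fold changes of 38 collagen chains between tissues from edgeR with 95% intervals, filled where the adjusted p was under 0.05. Col22a1, Col19a1, Col24a1 and Col7a1 lie far to the left in both contrasts against muscle, and Col27a1 lies to the right in all 3 panels.

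Quercetin against vehicle gave no call for any collagen chain in any tissue. Each tissue was fitted alone with edgeR, 3 libraries against 3, a size at which 0.1 is the smallest two-sided p of an exact permutation test. In muscle 35 of the 44 chains passed the filter on low counts and 0 were called, as were 0 of 13562 genes (0% of genes). At an unadjusted p under 0.05 there were 2 chains and 406 of all genes (2.99%) by edgeR, and DESeq2 also called 0 and had 2 chains and 610 genes (4.50%). Estimates were higher with quercetin for 29 of the 35 chains, with a median log2 fold change of 0.65 beside −0.03 over all genes. That excess moved with a few libraries. Without muscle vehicle 1, in which fibroblast and tendon markers were low, 26 of 36 were higher with a median of 0.20, and without muscle quercetin 1 the median was 0.27. Without muscle vehicle 3, one of the libraries with high adipocyte markers, it was 1.48, with 10 of 36 chains at an unadjusted p under 0.05 beside 12.5% of all genes, and 0 called.

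The interstitial chains show that spread in muscle. Col1a1 held 264, 146 and 102 CPM with quercetin and 1.75, 98.4 and 199.6 CPM with vehicle, and the groups overlapped. Its log2 fold change was 0.74 ± 1.12 (SE). Col3a1 held 382.5, 217 and 162 CPM with quercetin and 3.26, 276 and 480.2 CPM with vehicle, a log2 fold change of −0.03. Among type VI chains Col6a1 held 216, 126 and 132 CPM with quercetin and 9.66, 75.2 and 196 CPM with vehicle, again with overlap and a log2 fold change of 0.72. The estimates of the basement membrane pair were below 0. Col4a1 held 585, 411 and 385 CPM with quercetin and 383.5, 466 and 1031 CPM with vehicle, a log2 fold change of −0.49 ± 0.45 (SE). Without muscle vehicle 3 the estimates turned to 0.080 for Col4a1 and 0.20 for Col4a2.

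The chains with the smallest p in muscle were rare ones. Col8a2 held 1.99, 2.11 and 2.78 CPM with quercetin and 0.466, 0.722 and 0.807 CPM with vehicle, without overlap, for a log2 fold change of 1.71 ± 0.52 (SE, unadjusted p = 0.0108, adjusted p = 0.910, edgeR). Col4a6 held 3.97, 1.24 and 1.39 CPM with quercetin and 0.466, 0.842 and 0.727 CPM with vehicle, for a log2 fold change of 1.66 ± 0.66. Col23a1, a transmembrane chain, was the third tested chain whose groups did not overlap. It held 3.34, 3.60 and 4.04 CPM with quercetin and 0.466, 1.80 and 3.15 CPM with vehicle. These 3 of 35 chains were higher without overlap, and 0 were lower, where 5.85% and 3.40% of all genes tested in muscle were. Col22a1 (log2 fold change 0.96), Col4a3 (1.29) and Col19a1 (−1.31) came next in p and overlapped. Col9a2 had too few counts for the muscle test. It also lay higher without overlap, at 0.2479 to 0.7315 CPM with quercetin and 0 to 0.2422 CPM with vehicle. Across classes 8 of 10 fibrillar, 4 of 6 basement membrane and 5 of 5 beaded filament chains had higher estimates with quercetin.

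In white fat 30 chains were tested and 0 called, as were 0 of 14919 genes by edgeR (0% of genes). None had an unadjusted p under 0.05, where 122 of all genes (0.818%) did. DESeq2 called 7 genes and no chain, and had none at an unadjusted p under 0.05 either, where 1.96% of all genes were. Estimates were higher with quercetin for 24 of 30 chains with a median log2 fold change of 0.58 beside −0.01 over all genes, and this rested on 1 library. Without quercetin 2, the library with the most fibroblast transcripts, 12 of 31 were higher and the median was −0.40. Without both libraries of the second flow cell 12 of 31 were higher and the median was −0.19. Without vehicle 1, on the other hand, 30 of 31 were higher.

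Col3a1 in white fat held 141, 2019 and 279 CPM with quercetin and 107, 54.1 and 716 CPM with vehicle, so each group had 1 high library. Col1a1 followed the same libraries, at 64.3, 681 and 154 CPM with quercetin and 118, 70.8 and 464 CPM with vehicle. Col4a1 held 174, 1580 and 399 CPM with quercetin and 3044, 134 and 753 CPM with vehicle, and its highest vehicle library was the one rich in endothelial transcripts. The log2 fold changes were 1.47 for Col3a1, 0.46 for Col1a1 and −0.90 ± 1.30 (SE) for Col4a1. Col6a5, given above, and Col9a3 were the 2 of 30 chains that were higher without overlap, and 0 were lower, where 2.61% and 1.83% of all genes tested in white fat were. Col9a3, a FACIT chain of cartilage, held 3.65, 1.53 and 2.03 CPM with quercetin and 0, 1.17 and 1.19 CPM with vehicle, for a log2 fold change of 1.57 ± 1.09 (SE, unadjusted p = 0.199, edgeR), and 6.07% of its exons overlap the gene Tcfl5 on the other strand. Col14a1, a FACIT chain on the fibril surface, had the smallest p of the white fat chains, 0.180 unadjusted (edgeR), and its 49.3 CPM in quercetin 2 stood beside 2.62 to 8.87 CPM in all other white fat libraries. Col11a2 (log2 fold change 0.80), Col5a2 (1.25) and Col7a1 (0.64) came next in p.

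In brown fat 26 chains were tested and 0 called, as were 0 of 13274 genes by edgeR (0% of genes). None had an unadjusted p under 0.05 by edgeR, where 241 of all genes (1.82%) did. DESeq2 called 2 genes and no chain, with 2 chains at an unadjusted p under 0.05 beside 2.78% of all genes. Estimates were higher with quercetin for 15 of 26 chains, and the median log2 fold change was 0.06 beside 0.05 over all genes. Of the chains tested, the 2 main basement membrane chains were the ones whose groups did not overlap. Col4a1 held 465.5, 662 and 753 CPM with quercetin and 1022, 1131 and 916 CPM with vehicle, averaging 627 ± 147 and 1023 ± 108 CPM (SD, n = 3 each). Col4a2 held 346, 533 and 416 CPM with quercetin and 726, 736 and 614 CPM with vehicle, averaging 432 ± 94.3 and 692 ± 68.0 CPM (SD, n = 3 each).

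Every brown fat quercetin library thus lay below every vehicle library for both chains, and these 2 of 26 were lower without overlap while 0 were higher, where 3.32% and 2.87% of all genes tested in brown fat were. Col4a3 had too few counts for the brown fat test. It also lay lower without overlap, at 0.283 to 0.506 CPM with quercetin and 0.722 to 1.30 CPM with vehicle. So did Col10a1, a chain near the floor, at 0 to 0.1045 CPM with quercetin and 0.1445 to 0.2222 CPM with vehicle. Col4a4 overlapped, at 0.627 to 1.27 CPM with quercetin and 0.722 to 3.81 CPM with vehicle. The shares above cover tested genes only. The log2 fold change was −0.69 ± 0.35 (SE) for Col4a1, with an interval from −1.50 to 0.12 and an unadjusted p of 0.0850, and −0.67 ± 0.32 for Col4a2, with an unadjusted p of 0.0713 (edgeR, adjusted p = 0.977 for both). Since the genes moved together across all libraries, the second is not a separate observation. Leaving out each library in turn gave −0.89 to −0.51 for Col4a1 and −0.84 to −0.53 for Col4a2. The estimate for Col4a1 was −0.89 without quercetin 3, the library with muscle transcripts. The 5 endothelial markers summed to 1063, 934 and 1021 CPM with quercetin and 1217, 1168 and 1243 CPM with vehicle, also without overlap. Singly they did not move together. Pecam1 was lower without overlap, and Cdh5, Cldn5 and Kdr overlapped. Emcn was higher without overlap, at 27.9 to 35.2 CPM with quercetin and 16 to 21.4 CPM with vehicle. The part of these markers in the result was not tested. The basement membrane share of collagen CPM was 47.8, 56.2 and 55.0% with quercetin and 66.1, 76.4 and 55.4% with vehicle, with overlap.

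The interstitial chains of brown fat differed little in their estimates. Col3a1 held 189, 199.8 and 212 CPM with quercetin and 116, 107 and 341 CPM with vehicle, for a log2 fold change of 0.11. Type VI chains had higher estimates in 4 of 4, with a median log2 fold change of 0.63 and overlap in each. Col6a3 held 59.0, 100.3 and 85.7 CPM with quercetin and 25.4, 47.5 and 83.6 CPM with vehicle. Col27a1, the chain that set brown fat apart from muscle, had a log2 fold change of −1.03 ± 0.56 (SE, unadjusted p = 0.109, edgeR), which was −0.33 without vehicle 1. Col23a1 (log2 fold change 1.09) and Col15a1 (0.69) came next in p.

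**Figure D5:**
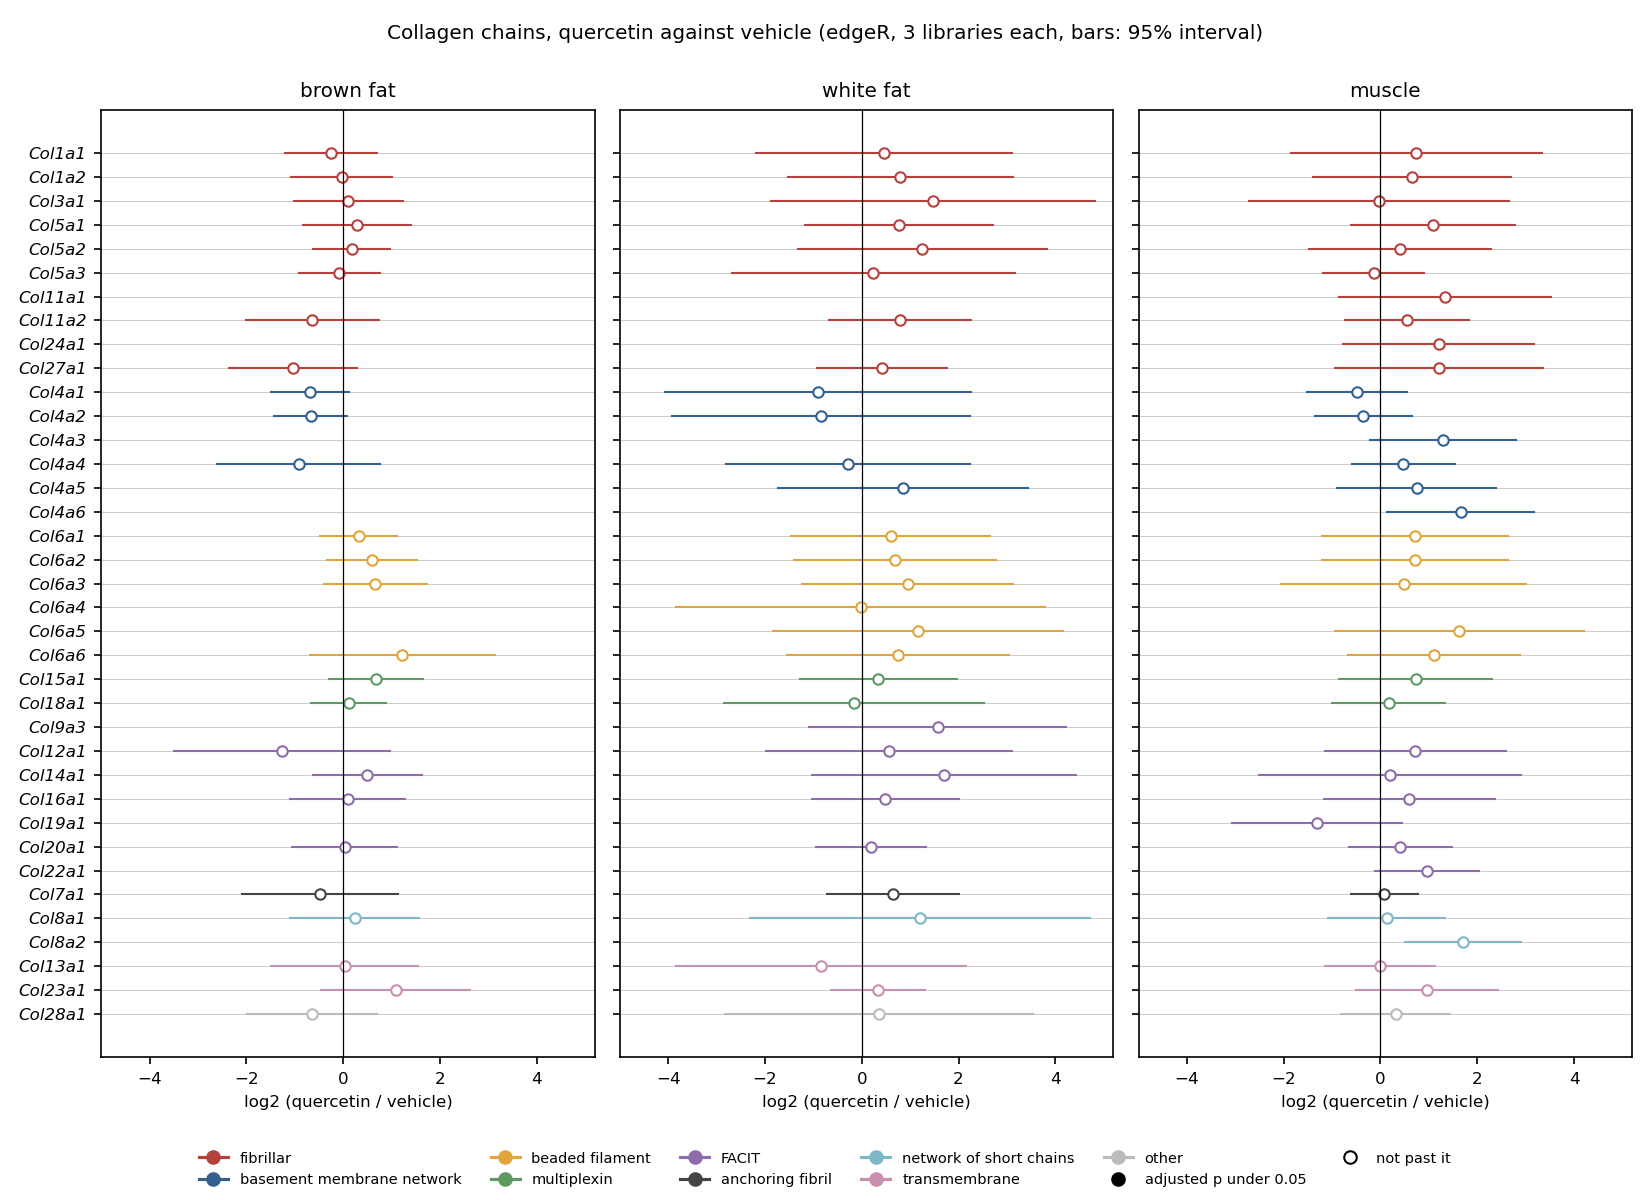
Log2 fold changes of collagen chains, quercetin against vehicle, in each tissue from edgeR with 95% intervals, filled where the adjusted p was under 0.05. No point is filled, and the brown fat intervals of Col4a1 and Col4a2 lie mostly left of 0 but include it.

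The quercetin estimates were also compared between tissues as an interaction in the fit of all 18 libraries. No chain was called in white fat minus muscle, in brown fat minus muscle or in brown fat minus white fat, as were 0 of 16388 genes in each (0% of genes, edgeR). DESeq2 called 0 of the 38 chains in each. At an unadjusted p under 0.05 by edgeR there were 0, 1 and 0 of the 38 chains in that order. The share of all genes at that p is not given here, so this count is no result about the chains. The 1 chain was Col4a3, which had 165 counts over the 18 libraries. Its estimate was lower in brown fat than in muscle by 2.65 on the log2 scale, with an unadjusted interval from −5.09 to −0.20.

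A list of 74 genes that make, process, bind or degrade collagen was read from the same fits. With quercetin, 0 of 64 tested members were called in brown fat, 0 of 69 in white fat and 0 of 68 in muscle, with median log2 fold changes of 0.10, 0.20 and 0.18. At an unadjusted p under 0.05 edgeR had 0, 0 and 3 members, where 1.82%, 0.818% and 2.99% of all genes were. Those of muscle were Itga11, an α subunit of a fibroblast collagen receptor, at 9.93 ± 1.996 CPM with quercetin and 1.85 ± 1.20 CPM with vehicle (SD, n = 3 each; log2 fold change 2.38 ± 0.60 SE), Colgalt2, which adds galactose to collagen (1.31), and Adamts2, which trims the N-propeptide (−2.31). The adjusted p of each was 0.910 by edgeR. Between tissues, edgeR called 16 of 72 members lower in brown fat than in white fat and 0 higher, where 22.0% and 18.3% of all genes were. In brown fat against muscle 2 were higher and 13 were lower, where 13.9% and 13.3% of all genes were. In white fat against muscle 14 were higher and 12 were lower, where 28.6% and 21.7% of all genes were. Mmp3, the matrix metalloproteinase stromelysin, averaged 99.1 ± 47.0 CPM in white fat and 6.22 ± 7.38 CPM in muscle (SD, n = 6 each), a log2 fold change of 4.06 ± 0.69 (SE, adjusted p = 0.000291, edgeR). Kera, a small proteoglycan that spaces fibrils in cornea and tendon, had no count in either fat and 189 in muscle, at least 61.0-fold lower in brown fat and at least 87.0-fold lower in white fat, taking 3 counts over the 6 libraries as the floor. Fmod, a fibril-binding proteoglycan of tendon, averaged 1.35 CPM in brown fat, 11.3 CPM in white fat and 58.0 CPM in muscle.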

How the data were processed

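The authors deposited 1 file of raw counts per library, whole reads per Ensembl gene without normalization, with summary lines per the file headers. Per the submitters' processing notes, the tools were HISAT2, HTSeq and DESeq2 and the build was mm10; the sources used here give no version, annotation release or strand setting. Per the labels' protocols, RNA was extracted with TRIzol and libraries were made with a NEBNext Ultra kit. Reads without a feature equalled 2.53 to 9.11% and ambiguous reads 6.47 to 9.84%, and both stayed out of the tests. A symbol from the GENCODE annotation of GRCm38 was found for 53360 of 53465 identifiers. All 18 replicate pairs differed beyond sampling noise, with chi-square per degree of freedom at 27.0 or more.

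Counts were fitted with edgeR 4.0.16 in R 4.3.3, using TMM, filterByExpr (minimum count 10, minimum total count 15), and the two-sided quasi-likelihood test, with Benjamini-Hochberg adjustment over all genes tested and a threshold of 0.05. Quercetin was tested within each tissue, and tissues in a fit of all 18 libraries. The standard error is the log2 fold change divided by the square root of F. Intervals are 95% and unadjusted, and counting intervals and floors cover counting error only. The calculations were tested on simulated data.

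Named chains are those past the threshold, or else the 5 with the smallest p, a panel of 12 common chains, those called without overlap between tissues, and the 10 highest per kb. The members, classes and lists were chosen with earlier results of these data known. Alternatives were DESeq2 1.42.0, voom with library weights in limma 3.58.1, RLE and upper quartile scaling, no filter, a replicate block, the vehicle or quercetin groups alone, and libraries left out.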

Additional observations from a re-analysis of the deposited data

How the results depend on the processing

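No alternative run called a collagen chain for quercetin in any tissue or for its difference between tissues; DESeq2, RLE and upper quartile scaling, no filter on low counts, a replicate block, voom weights, all 18 libraries in 1 fit, the flow cell split and each library left out were tried. In brown fat against white fat the number of chains called, 6, was 10 with DESeq2, 2 to 11 with 1 library left out, 0 in the vehicle groups alone and 1 in the quercetin groups alone. The vehicle groups alone gave 3 calls in white fat against muscle and 3 in brown fat against muscle, where Col7a1 (−1.94, adjusted p = 0.0891, edgeR) and Col20a1 (−1.26, adjusted p = 0.191, edgeR) missed the threshold; those fits hold fewer libraries. Over the 18 fits with 1 library left out, white fat against muscle called 11 to 15 chains and brown fat against muscle 10 to 12. The values do not settle whether replicate numbers pair the libraries across tissues. Between arms same-numbered libraries correlated at −0.716 to 0.261, with 2 of 9 pairs over 0.1. Across tissues they correlated at −0.166 to 0.285, with 10 of 18 pairs over 0.1 and 12 matching their own number best. Among the vehicle libraries every pair was over 0.1 and matched best between white fat and muscle (0.136, 0.274 and 0.285) and between brown fat and muscle (0.256, 0.154 and 0.283), and the labels do not say that a number marks an animal. A block on the vehicle groups alone, chosen after seeing the data, called 3 chains in white fat against muscle, 2 in brown fat against muscle and 0 in brown fat against white fat. With the number as a replicate block in all 18 libraries, the tissue contrasts called 13 (white fat against muscle), 11 (brown fat against muscle) and 5 (brown fat against white fat) chains, and the muscle quercetin median was 1.04. For this block, DESeq2 and the fits with 1 library left out, the share of all genes called is not given here. A shift in these counts thus cannot be told apart from a shift in calls over all genes. Upper quartile scaling moved the median of all genes in muscle to 0.08, with 31 of 35 chains higher.

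Several quercetin estimates changed sign, none of them called in either setting, and the cause was not tested. All values here are log2 fold changes. In muscle Col3a1, −0.03, was 0.0056 with upper quartile scaling, 0.0036 with all 18 libraries, 0.21 without the library of the second flow cell and 0.60 with the replicate block. In white fat without the libraries of the second flow cell, which leaves vehicle 2 and 3 and quercetin 1 and 3, the estimates were −0.91 for Col14a1, −0.56 for Col5a2, −1.34 for Col1a1, −0.81 for Col1a2, −0.92 for Col3a1, −0.19 for Col5a1, −0.18 for Col6a1, −0.27 for Col6a2, −0.16 for Col6a3 and −0.21 for Col15a1. With voom weights they were −0.84 for Col14a1, −0.32 for Col5a2, −1.13 for Col1a1, −0.80 for Col1a2, −0.64 for Col3a1, −0.088 for Col5a1, −0.047 for Col6a1, −0.13 for Col6a2 and −0.26 for Col15a1, and with the replicate block Col1a1 was −0.022. In brown fat the replicate block gave 0.12 for Col1a2, and voom weights gave −0.20 for Col3a1, −0.13 for Col5a2 and −0.039 for Col18a1.

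With 1 library left out, the muscle ranges were −0.60 to 0.85 for Col3a1, −0.73 to 0.080 for Col4a1, −0.59 to 0.20 for Col4a2, −0.12 to 1.40 for Col5a2, −0.084 to 1.81 for Col6a3 and −0.15 to 1.04 for Col18a1. The white fat ranges were −0.56 to 2.19 for Col14a1, −0.60 to 1.76 for Col5a2, −1.04 to 1.68 for Col1a1, −0.71 to 1.49 for Col1a2, −0.53 to 3.34 for Col3a1, −2.27 to 0.71 for Col4a1, −2.19 to 0.67 for Col4a2, −0.26 to 1.19 for Col5a1, −0.40 to 1.05 for Col6a1, −0.17 to 1.41 for Col6a2, −0.25 to 0.84 for Col15a1 and −1.32 to 0.72 for Col18a1. The brown fat ranges were −0.55 to 0.16 for Col1a1, −0.39 to 0.28 for Col1a2, −0.17 to 0.84 for Col3a1, −0.086 to 0.58 for Col5a1, −0.034 to 0.48 for Col5a2 and −0.13 to 0.31 for Col18a1. Length by the longest transcript raised Col1a2 to 38.0 CPM per kb in muscle, Col3a1 to 45.6 there, and moved the median ratio of Col3a1 to Col1a1 to 2.17.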
